A study of Ovis aries with 6 samples.

Results

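The genes described here are 9 targets of the transcription factor NRF2 that serve glutathione, thioredoxin and NADPH metabolism: NQO1, SRXN1, SLC7A11, TXNRD1, GCLM, GCLC, OSGIN1, PGD and TXN. They were taken by gene symbol from the table of raw counts, in which each has 1 row among 18865. All 9 passed the filter on low counts, which kept 14326 genes for testing.

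NRF2, encoded by NFE2L2, is held in the cytoplasm by KEAP1 and degraded there as long as the sensor cysteines of KEAP1 are reduced. When oxidants or electrophiles modify those cysteines, NRF2 accumulates, pairs with small MAF proteins and binds antioxidant response elements, sites that BACH1 can occupy as a repressor. Its targets import cystine, build glutathione, reduce thioredoxin and regenerate NADPH, and in endothelium they are known as part of the defence against oxidants carried by blood or made in the cell.

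The data are RNA sequencing counts from cultured sheep mitral valve endothelial cells, which line the valve leaflets. One group (naive) received plasma of naive sheep for 24 h and the other (post-MI) received plasma that sheep gave after a myocardial infarction, also for 24 h, with 3 libraries in each group. No other allele, drug or treatment is named for either group. The labels name neither the plasma concentration nor the donors of plasma and cells. Replicates may therefore be technical, and p-values cover only the spread among the 6 libraries. Cultures given sFRP3, a secreted Wnt inhibitor named in the series title, were not analysed here.

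Total counts ranged from 14858472 to 20672794 per library. One library stood apart: naive replicate 1 had a score of -52.3 on the first principal component (500 most variable genes), against -0.498 to 18.5 for the rest. Values of the 9 genes are therefore given with and without it, and so are the counts of each gene list. The 12 endothelial markers summed to 3111 to 3443 CPM in the naive and 3217 to 4573 CPM in the post-MI libraries, with PECAM1 at 889 CPM or more and CDH5 at 864 CPM or more in every library. Of these 12 markers 2 had groups that did not overlap, both higher with post-MI plasma: ROBO4 (11.5 to 20.3 and 21.5 to 56.1 CPM) and CLDN5 (0.2 to 4.42 and 5.14 to 20.2 CPM, lowest in naive replicate 1). The share of all tested genes that were higher without overlap was not counted. Such counts of markers are therefore only descriptions of the genes named. VWF was at 6.58 to 17.8 CPM with naive and 15.4 to 49.8 CPM with post-MI plasma. CPM are counts per 1000000 counts of the library, whose total was adjusted by TMM factors that ran from 0.9855 to 1.03. Of the leukocyte markers 11 of 12 had a row, summing to 36.4 to 61.6 CPM in the naive and 34.6 to 42.1 CPM in the post-MI libraries. Their defining marker PTPRC was at 0.141 to 0.347 CPM with naive and 0.643 to 1.33 CPM with post-MI plasma, without overlap, and S100A8 had 0 counts in all 6. The naive counts of PTPRC were 4, 6 and 3, at or near the floor of 3 counts. CD14, the largest part of the sum, overlapped at 25.9 to 41.4 and 22.6 to 32.4 CPM and was highest in naive replicate 1. Fibroblast and interstitial cell markers (8 of 8 with a row) summed to 5868 to 14385 CPM with naive and 10265 to 12493 CPM with post-MI plasma. Most of this was COL1A1 (3172 to 9781 and 6631 to 8733 CPM) and COL3A1 (2483 to 4252 and 3391 to 3486 CPM). Of these 8 markers 0 had groups that did not overlap. Smooth muscle and pericyte markers (6 of 7) summed to 896 to 4993 and 4534 to 6186 CPM, with RGS5 at 0 counts in all 6. Of them 2 were higher with post-MI plasma without overlap: TAGLN (159 to 435 and 437 to 558 CPM) and CSPG4 (64.4 to 155 and 158 to 211 CPM). ACTA2 overlapped, at 643 to 4268 and 3816 to 5330 CPM. In the fibroblast list and the smooth muscle list naive replicate 1 had the lowest sum, and the part this plays in the results was not tested. Markers of red cells and platelets (5 of 10) summed to 30.3 to 59.6 and 33.5 to 53.2 CPM, with HBM, ALAS2 and PPBP at 0 counts in all 6.

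The comparison of the 2 plasmas asked how post-MI plasma alters expression in these cells. Every one of the 9 genes had lower CPM in each post-MI library than in any naive library, which also fixes this for any smaller set of the libraries. Mean CPM with naive plasma exceeded that with post-MI plasma by a factor that ran from 1.65 for the pentose phosphate enzyme PGD to 8.11 for the quinone reductase NQO1. Without naive replicate 1 the factors ran from 1.5 for PGD to 5.1 for NQO1. Over all tested genes, CPM of the groups did not overlap and were lower with post-MI plasma for 7.82%, and for 12.8% without naive replicate 1.

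By edgeR's quasi-likelihood test adjusted over all 14326 genes, 0 of the 9 were called at 0.05, against a background of 0% of all genes called lower. Their edgeR adjusted p-values ran from 0.300 for SRXN1 to 0.519 for OSGIN1, and the smallest of any gene was 0.254. At an unadjusted p under 0.05, 9 of 9 passed with lower levels, where 4.08% of all tested genes did. A negative log2 fold change, post-MI minus naive, was found for 9 of 9 and for 52.1% of all tested genes. The median log2 fold change was -1.20 over the 9 genes and -0.01 over all genes tested. These 9 genes were chosen with earlier results of these data known, so the counts describe them and are no independent evidence of their direction.

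**Figure D1:**
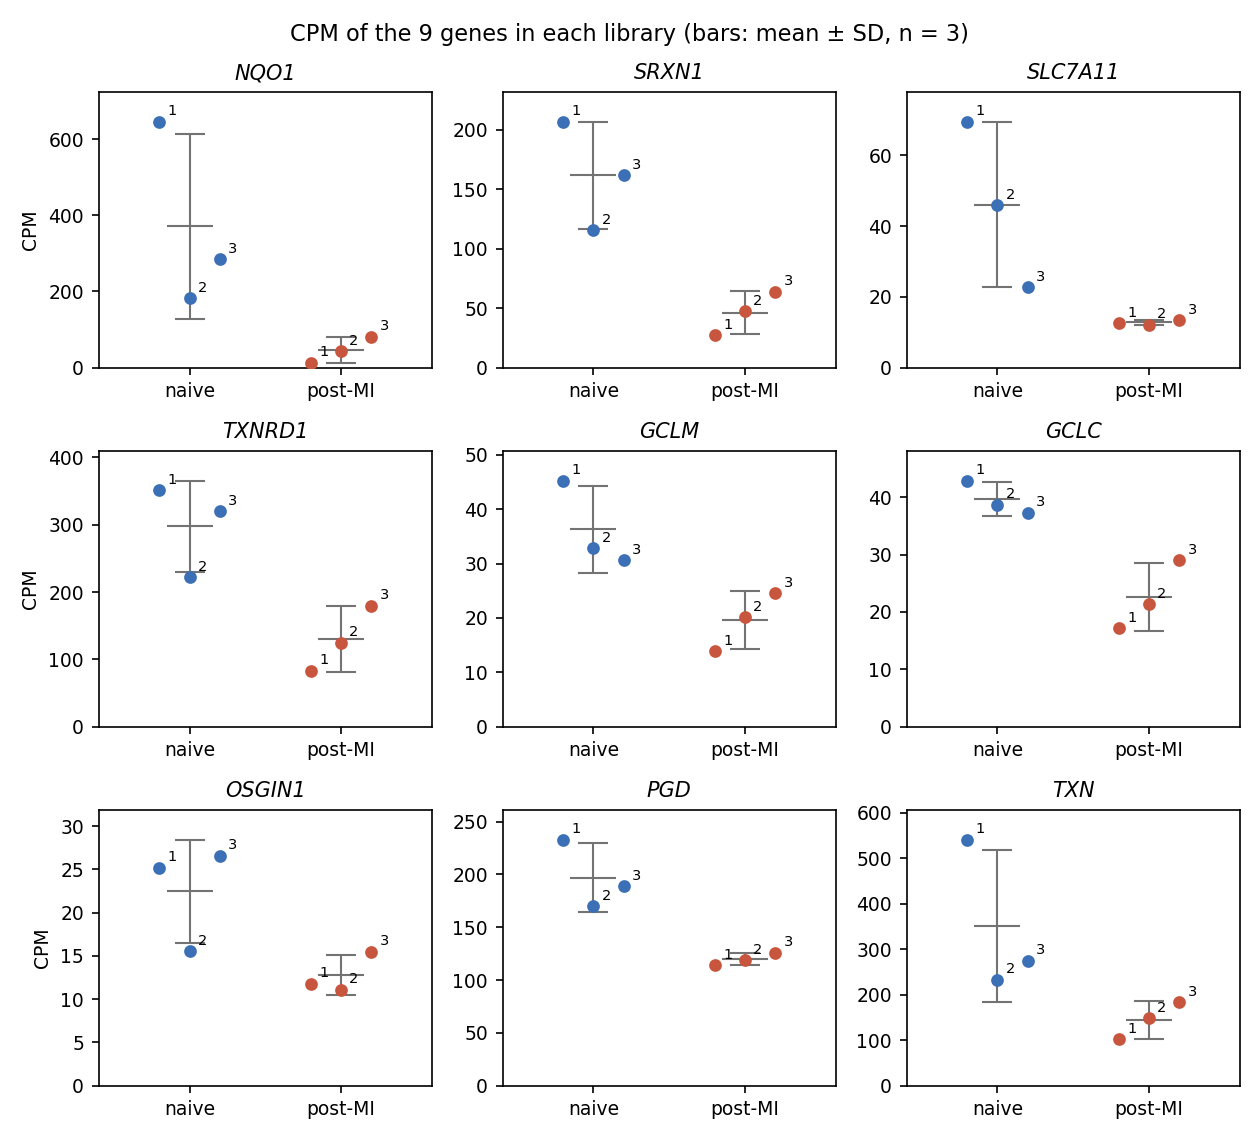
CPM (vertical axis, linear from 0) of each of the 9 genes in the 3 naive (blue) and 3 post-MI (red) libraries, each point a library numbered by its replicate, with grey bars for the mean ± SD (n = 3). In every panel the lowest naive point lies above the highest post-MI point, by a factor that ran from 1.01 for OSGIN1 to 2.24 for NQO1.

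NQO1 reduces quinones with NAD(P)H as electron donor. Its level was 646, 183 and 284 CPM in naive replicates 1, 2 and 3 and 13.1, 42.6 and 81.6 CPM in post-MI replicates 1, 2 and 3. Groups did not overlap, and the spread within each was wide, with a coefficient of variation (SD as a percent of the mean) of 65.6% and 75.1%. The log2 fold change was -3.02 ± 0.73 (SE; adjusted p = 0.381 by edgeR), which placed NQO1 at rank 22 of the 14326 genes, counted from the most negative. It was -2.35 ± 0.63 (SE; adjusted p = 0.398 by edgeR) without naive replicate 1.

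SRXN1, or sulfiredoxin, uses ATP to restore peroxiredoxins whose cysteine has been over-oxidised. Its CPM were 207, 116 and 162 with naive plasma and 27.5, 47.6 and 64.0 with post-MI plasma, in order of replicate number. The lowest naive library held 1.82 times the CPM of the highest post-MI library. SRXN1 had the smallest p of the 9 genes and had rank 52 among all genes tested, with a log2 difference of -1.80 ± 0.34 (SE; adjusted p = 0.300 by edgeR). The value was -1.58 ± 0.33 (SE; adjusted p = 0.226 by edgeR) without naive replicate 1.

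Glutathione supply is represented by the cystine importer SLC7A11 and by both subunits of glutamate-cysteine ligase, which makes the first and rate-limiting step of glutathione synthesis. SLC7A11 stood at 69.6, 45.9 and 22.8 CPM in the naive and 12.7, 12.2 and 13.5 CPM in the post-MI libraries. The post-MI libraries lay close together (12.8 ± 0.649 CPM, SD, n = 3), within what counting error alone gives, while naive replicate 2 held 2.01 times the CPM of naive replicate 3. Its log2 fold change was -1.85 ± 0.37 (SE; adjusted p = 0.303 by edgeR), and -1.41 ± 0.28 (SE; adjusted p = 0.209 by edgeR) without naive replicate 1.

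GCLC, the catalytic subunit, was at 42.9, 38.7 and 37.3 CPM with naive plasma and 17.2, 21.4 and 29.0 CPM with post-MI plasma. GCLM, the modifier subunit that raises the activity of the enzyme, was at 45.3, 32.8 and 30.7 CPM and at 13.9, 20.2 and 24.6 CPM. In both subunits post-MI replicate 3 came closest to the naive libraries. GCLC had the narrowest naive group of the 9 genes, with a coefficient of variation of 7.46%. The log2 fold changes were -0.81 ± 0.20 for GCLC and -0.89 ± 0.25 for GCLM (SE; adjusted p = 0.393 and 0.490 by edgeR). These were -0.74 ± 0.22 and -0.69 ± 0.23 (SE; adjusted p = 0.454 and 0.540 by edgeR) once naive replicate 1 was left out.

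Thioredoxin (TXN) reduces protein disulfides and peroxiredoxins, and the selenoprotein TXNRD1 returns it to its reduced form with NADPH. TXN was at 541, 233 and 275 CPM with naive plasma and at 102, 148 and 184 CPM with post-MI plasma. Naive replicate 1 held 2.13 times the mean CPM of the other naive libraries. The log2 fold change of TXN was -1.28 ± 0.37 (SE; adjusted p = 0.491 by edgeR), and -0.81 ± 0.24 (SE; adjusted p = 0.459 by edgeR) without naive replicate 1, so that library made the difference 1.58 times as large. TXNRD1 was at 352, 222 and 320 CPM in the naive and at 83.3, 125 and 180 CPM in the post-MI libraries. Here naive replicate 1 held only 1.30 times the mean of the other naive libraries. TXNRD1 gave -1.20 ± 0.31 (SE; adjusted p = 0.403 by edgeR), and -1.06 ± 0.31 (SE; adjusted p = 0.459 by edgeR) without naive replicate 1.

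PGD is an NADPH-producing dehydrogenase of the oxidative pentose phosphate pathway. It was at 233, 170 and 189 CPM with naive plasma and at 114, 119 and 126 CPM with post-MI plasma. The difference was the smallest of the 9 on the log2 scale, at -0.72 ± 0.16 (SE; adjusted p = 0.354 by edgeR), and the post-MI libraries differed little, with a coefficient of variation of 4.95%. By p PGD had rank 101 among all genes tested. It gave -0.57 ± 0.13 (SE; adjusted p = 0.262 by edgeR) without naive replicate 1.

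OSGIN1 encodes an oxidative-stress-induced growth inhibitor. Its CPM were 25.2, 15.6 and 26.6 in the naive and 11.8, 11.1 and 15.5 in the post-MI libraries. Naive replicate 2 was only 1.01 times post-MI replicate 3, so the groups were barely apart. OSGIN1 was the member whose highest library was naive replicate 3, and its log2 fold change was -0.81 ± 0.24 (SE; adjusted p = 0.519 by edgeR), or -0.71 ± 0.26 (SE; adjusted p = 0.569 by edgeR) without naive replicate 1.

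Leaving out naive replicate 1 kept the sign of all 9 log2 fold changes. The median over the 9 genes was then -0.81, beside 0.00 over the 14431 genes tested in that fit. All 9 had an unadjusted edgeR p under 0.05 in that fit, where 3.36% of all genes passed with lower levels. None of the 9 was called after adjustment over all genes, and edgeR called 0 genes of the whole table in that fit (1169 at an unadjusted p under 0.05), with a smallest adjusted p of 0.141. In each of the 6 edgeR fits that left out 1 library, all 9 genes kept an unadjusted p under 0.05. Of all genes tested, 5.47% and 5.36% passed with lower levels when naive replicates 2 and 3 were left out, and 2.08%, 1.43% and 4.57% when post-MI replicates 1, 2 and 3 were. Each of the 9 genes had an edgeR adjusted p of 0.871 with post-MI replicate 1 left out and of 0.969 with post-MI replicate 2 left out.

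**Figure D2:**
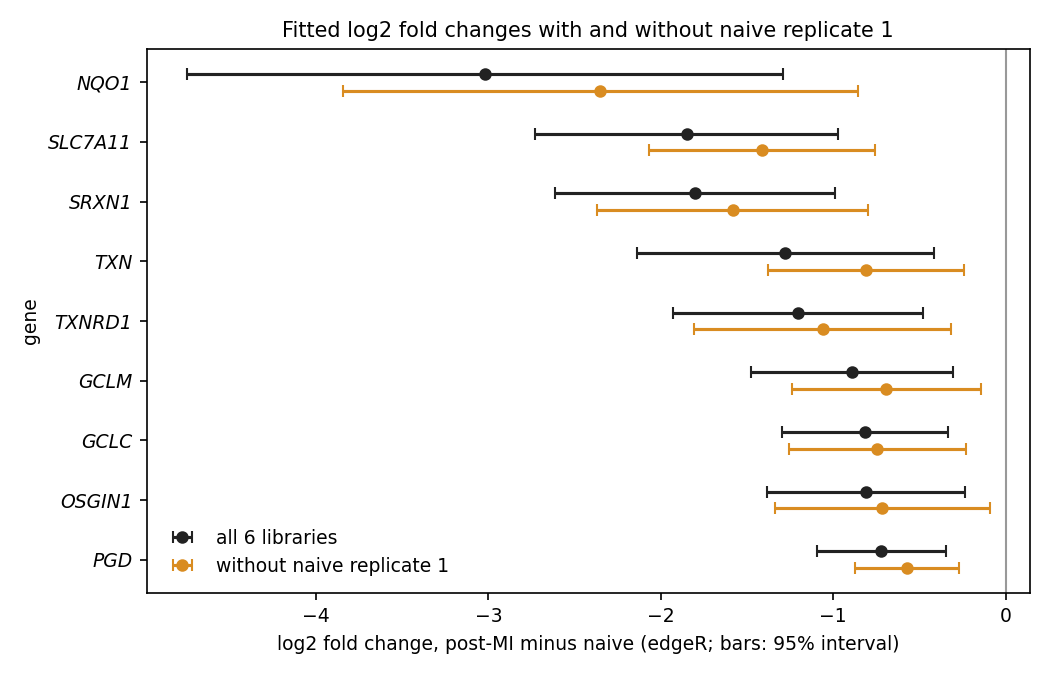
Log2 fold change, post-MI minus naive (horizontal axis), of the 9 genes from edgeR with all 6 libraries (black) and without naive replicate 1 (orange), with 95% intervals as bars. All 18 intervals lie below 0, and TXN and NQO1 move most when naive replicate 1 is left out, to -0.81 and -2.35.

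The DESeq2 Wald test, run as an alternative, called 6 of the 9 lower at an adjusted p under 0.05, beside 0.471% of all genes with an adjusted p. These were SRXN1 (DESeq2 adjusted p = 0.000126), SLC7A11 (0.000491), PGD (0.0122), TXNRD1 (0.0187), NQO1 (0.0231) and TXN (0.0374). GCLC, GCLM and OSGIN1 had DESeq2 adjusted p-values of 0.06, 0.0946 and 0.17. Without naive replicate 1, an alternative chosen after seeing the data, DESeq2 called 3 of the 9, where 0.375% of all genes were called lower. SRXN1, SLC7A11 and PGD were the 3, with adjusted p-values of 0.000734, 0.00101 and 0.00587, and TXNRD1, TXN and NQO1 gave 0.0668, 0.109 and 0.246. limma-voom called 0 of all genes after adjustment, with 1185 at an unadjusted p under 0.05, and edgeR had 1244.

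Within each group the 9 genes tended to rank the libraries alike. Naive replicate 1 was the highest of the 6 libraries for 8 of the 9 genes and for 28.8% of all genes tested. Post-MI replicate 3 was the highest post-MI library for 9 of 9 and for 38.7% of all genes tested. The lowest library was post-MI replicate 1 for 7 of the 9, all but SLC7A11 and OSGIN1, and for 18.6% of all genes tested. For the 9 genes, whose groups do not overlap, the highest of the 6 libraries had to be naive and the lowest post-MI. The shares of 28.8% and 18.6% include genes without that order, so part of the distance to them restates the group difference. Counts of the 9 genes together made up 0.217%, 0.105% and 0.139% of naive libraries 1, 2 and 3 and 0.0393%, 0.0539% and 0.0714% of post-MI libraries 1, 2 and 3. The mean log2 CPM of the 9 genes ran from 6.36 to 7.13 in the naive and from 4.84 to 5.73 in the post-MI libraries, while the median log2 CPM of all genes tested stayed between 4.35 and 4.40.

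Profiles were compared by the root mean square difference of log2 CPM over the 6 libraries, after each gene was centred on its own mean. Profiles were not scaled, so genes whose fold changes differ in size lie apart by this measure even where their order of libraries is alike. The closest pair among the 9 was GCLM and GCLC, the subunits of 1 enzyme, at 0.133. PGD was the next closest to GCLC (0.209), OSGIN1 (0.215) and GCLM (0.237). TXNRD1 and TXN, an enzyme and its substrate, came after these pairs, at 0.259. NQO1 differed most from the others, by 0.840 from SRXN1 up to 1.49 from PGD, its log2 CPM spanning from 2.59 above to 3.03 below its mean. SLC7A11 had a naive replicate 3 that lay at -0.02 around its mean, where the other 8 genes ran from 0.23 to 1.40.

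Of the 10 genes nearest to the mean profile of the 9, among genes averaging 1 or more on the log2 CPM scale, 9 are reported: TALDO1, MAP1A, LOC105604676, CRABP2, LRP8, ME1, MLLT11, CRYAB and SLC48A1. TALDO1, the transaldolase of the pentose phosphate pathway, lay at a root mean square difference of 0.148 over the 6 libraries. It stood at 257, 177 and 224 CPM with naive plasma and 57.7, 93.7 and 130 CPM with post-MI plasma, and so did not overlap. ME1, the cytosolic NADPH-producing malic enzyme, lay at 0.217. MAP1A (a microtubule-associated protein, 0.169), CRABP2 (a retinoic acid carrier, 0.190), LRP8 (a lipoprotein receptor, 0.204) and CRYAB (a small heat shock protein, 0.239) belonged to none of the role lists used here. In all 9 CPM were lower in every post-MI library than in any naive library, a property that closeness to the profile of the 9 largely fixes.

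**Figure D3:**
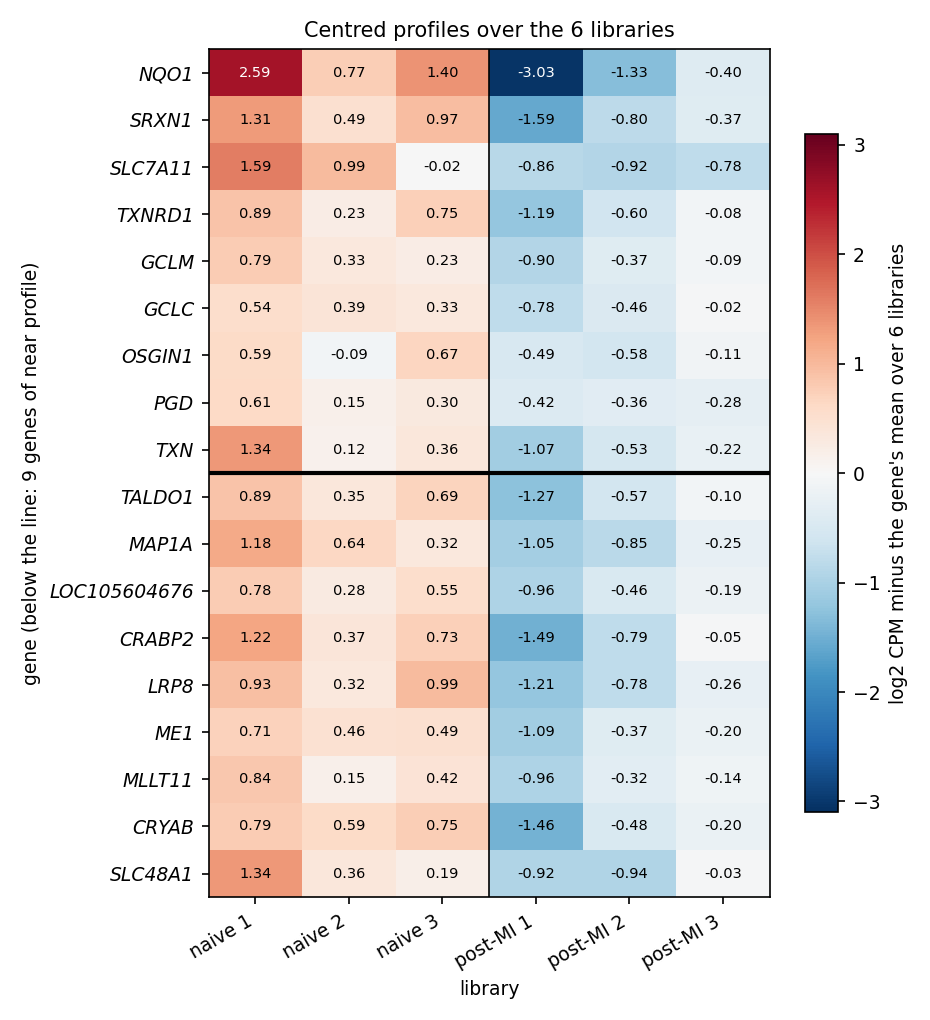
Log2 CPM minus the mean of the gene over the 6 libraries (colour and printed value) for the 9 genes (above the line) and the 9 reported genes of near profile (below it), with 1 column per library. NQO1 spans the widest range, from 2.59 in naive replicate 1 to -3.03 in post-MI replicate 1, and post-MI replicate 3 is nearest to 0 among the post-MI libraries in 9 of the first 9 genes.

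The mRNA of NRF2 itself, NFE2L2, was at 131, 114 and 129 CPM with naive and 95.1, 109 and 117 CPM with post-MI plasma, so the groups overlapped. Its log2 fold change was -0.22 ± 0.14 (SE; adjusted p = 0.640 by edgeR), with a 95% interval from -0.54 to 0.11. The mRNA of the inhibitor KEAP1 had non-overlapping groups, at 96.7 to 122 CPM with naive and 64.6 to 92.5 CPM with post-MI plasma (log2 fold change -0.42 ± 0.18, SE; edgeR adjusted p = 0.566; -0.49 without naive replicate 1). MAFG, a small MAF partner, was at 88.1 to 136 and 45.0 to 85.6 CPM, and the competing repressor BACH1 at 79.4 to 120 and 57.2 to 67.8 CPM. The autophagy adaptor SQSTM1, which binds KEAP1, was at 836 CPM in naive replicate 1, at 298 and 434 CPM in the other naive libraries and at 180 to 255 CPM with post-MI plasma, and its log2 fold change was -1.19 with and -0.66 without naive replicate 1. Of the 18 tested genes for NRF2 and its regulators, 4 passed an unadjusted edgeR p of 0.05 with lower levels (BACH1, SQSTM1, MAFG and KEAP1), 0 with higher levels, and 0 after adjustment over all genes. The median log2 fold change was -0.11. Leaving out naive replicate 1 gave 4 lower and 0 higher again, with a median of -0.07. Over all genes tested, 4.08% passed with lower levels, and 3.36% without naive replicate 1.

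A list for glutathione synthesis, recycling and use, which includes the carboxylase GGCX and the amino acid transporter SLC1A4, had differences of both signs. Of 27 tested, 3 passed an unadjusted edgeR p of 0.05 with lower and 2 with higher levels, 0 passed adjusted over all genes, and the median log2 fold change was -0.26 (-0.14 without naive replicate 1). In the whole set of 14326 tested genes, 4.08% passed with lower levels, and 1244 genes passed in either direction. Glutathione reductase GSR, which regenerates glutathione with NADPH, was at 110, 84.7 and 139 CPM with naive and 43.8, 66.6 and 63.7 CPM with post-MI plasma, and its log2 fold change of -0.94 was the same without naive replicate 1. The conjugate exporter ABCC3 and the glutathione transferase GSTM3 gave -0.89 ± 0.20 and -1.96 ± 0.51 (SE; adjusted p = 0.354 and 0.409 by edgeR), and -1.04 and -1.31 without naive replicate 1. Higher with post-MI plasma were GGT5, a gamma-glutamyltransferase-family enzyme (0.71 ± 0.23, SE), and MGST2, a microsomal transferase (0.43 ± 0.18, SE), with edgeR adjusted p-values of 0.534 and 0.566. Their log2 fold changes were 0.90 and 0.29 when naive replicate 1 was left out, and MGST2 no longer passed. In that fit 4 genes of the list passed with lower and 1 with higher levels, where 3.36% of all genes passed with lower levels. Of the 14431 genes tested in it, 1169 passed in either direction. Glutathione synthetase GSS, which acts after GCLC and GCLM, had overlapping groups at 9.09 to 11.2 and 4.07 to 9.18 CPM, since naive replicate 2 lay just below post-MI replicate 3. The peroxidases GPX1 and GPX4 had log2 fold changes of -0.10 ± 0.23 and -0.05 ± 0.15 (SE), with 95% intervals from -0.65 to 0.45 and from -0.40 to 0.30, and the sign of both turned in fits with fewer libraries. GSTP1 gave -0.26 ± 0.27 (SE), and -0.38 without naive replicate 1.

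Of 21 other genes of the thioredoxin and peroxiredoxin system, 3 passed an unadjusted edgeR p of 0.05 with lower and 1 with higher levels, and 0 passed adjusted over all genes (median log2 fold change -0.17, in both fits). The peroxiredoxin PRDX1, a substrate of both TXN and SRXN1, was at 2498, 824 and 1232 CPM with naive and 312, 494 and 530 CPM with post-MI plasma. Its groups did not overlap, and its log2 fold change was -1.77 ± 0.43 (SE; adjusted p = 0.380 by edgeR), or -1.20 without naive replicate 1. TXNL1, a thioredoxin-like protein, and PRDX5, another peroxiredoxin, gave -0.52 and -0.45, and -0.35 and -0.24 without naive replicate 1. Mitochondrial TXNRD2 differed the other way from cytosolic TXNRD1, at 10.8 to 18.0 CPM with naive and 19.7 to 25.5 CPM with post-MI plasma (0.55 ± 0.23, SE; edgeR adjusted p = 0.566; 0.36 without naive replicate 1). PRDX5 and TXNRD2 no longer passed without naive replicate 1, which left 2 genes with lower and 0 with higher levels. Lower levels at this p were found for 4.08% of all genes tested, and for 3.36% without naive replicate 1. In either direction 1244 of the 14326 genes tested passed, and 1169 of 14431 without naive replicate 1. TXNIP, which binds and inhibits thioredoxin, overlapped between the groups, at 104 to 186 and 70.5 to 340 CPM.

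Of 17 tested genes for NADPH supply other than PGD, 2 passed an unadjusted edgeR p of 0.05 with lower and 0 with higher levels, and 0 passed adjusted over all genes (median log2 fold change -0.30, and -0.10 without naive replicate 1). They were TALDO1 (-1.23 ± 0.30) and ME1 (-1.07 ± 0.24; both SE, edgeR adjusted p = 0.382 and 0.354). Both passed without naive replicate 1 too, at -1.09 and -0.98, and 0 genes passed with higher levels. The share of all tested genes that passed with lower levels was 4.08%, and 3.36% without naive replicate 1. Transketolase TKT, of the same pathway as TALDO1, overlapped between the groups (353 to 512 and 356 to 462 CPM) with a 95% interval of its log2 fold change from -0.60 to 0.32. IDH1, a cytosolic NADPH-producing isocitrate dehydrogenase, also overlapped, at 144 to 237 and 64.6 to 145 CPM.

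Of 28 tested NRF2 target genes with other roles, 8 passed an unadjusted edgeR p of 0.05 with lower and 0 with higher levels, and 0 passed adjusted over all genes (median log2 fold change -0.42, and -0.35 without naive replicate 1). The counts were 8 and 0 without naive replicate 1 too, but HMOX1 and FTH1 were no longer among the 8. EPHX1 and PIR passed in their place. FTH1 had a log2 fold change of -1.76 with all libraries and -0.25 without naive replicate 1. FTH1, EPHX1 and PIR are named here after their values were seen. Among all genes tested 4.08% passed with lower levels, and 3.36% without naive replicate 1. ME1 and TALDO1 stand in this list too. BLVRB, a biliverdin reductase of heme breakdown, was at 90.8, 40.8 and 27.8 CPM with naive and 10.4, 12.9 and 17.4 CPM with post-MI plasma. The heme oxygenase HMOX1 rested on 1 library: it was at 458 CPM in naive replicate 1, at 41.3 and 20.2 CPM in the other naive and at 13.1 to 29.0 CPM in the post-MI libraries. Its log2 fold change was -3.04 with all libraries and -0.53 without naive replicate 1, and its groups overlapped in both. In the same library NQO1, SLC7A11 and TXN were at 2.77, 2.03 and 2.13 times the mean of the other naive libraries, against 1.13 for GCLC and 1.19 for OSGIN1. Of the 124 genes on the role lists DESeq2 called 8, all lower: GSR, GSTM3, ABCC3, PRDX1, TALDO1, ME1, BLVRB and FTL, the ferritin light chain, which is named here after its values were seen. Among all genes with a DESeq2 adjusted p, 0.471% were called lower, and 0.375% without naive replicate 1. GSR and GSTM3 were no longer called by DESeq2 without naive replicate 1, while GGT5 and the extracellular dismutase SOD3 were called higher.

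**Figure D4:**
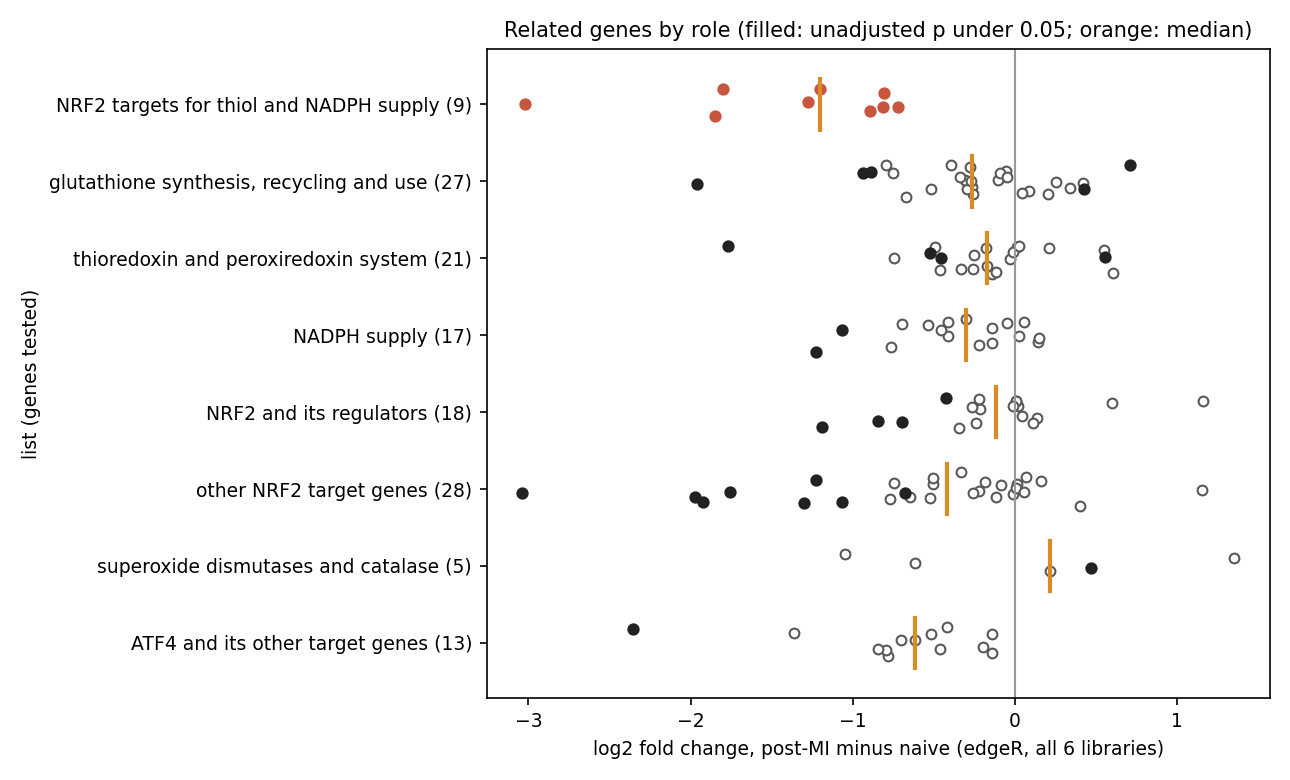
Log2 fold change, post-MI minus naive (horizontal axis, edgeR with all 6 libraries), of the 9 genes and of the tested genes of 7 role lists (rows, number tested in brackets). Filled points had an unadjusted p under 0.05 and the orange lines are medians: -1.20 for the 9 genes, and between -0.62 and 0.22 for the other lists.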

How the data were processed

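Polyadenylated RNA libraries were made with a stranded kit and read as pairs of 150 bp, per the labels' protocols. Per the submitters' processing notes, tools were STAR 2.5.2b, featureCounts 2.0.0 and DESeq2 1.26.0 and the build was Oar_v3.1. The annotation and whether counting used strand were not given in the sources used here, so reads of overlapping genes or near-identical copies could be shared. The deposited table holds raw counts. The authors' per-sample files hold a signal equal to these counts over 1 factor per library and were used only to check columns. No coordinates or sequences are given. All 9 symbols match protein-coding genes of RefSeq (ARS-UI_Ramb_v3.0).

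Genes were filtered with filterByExpr (minimum count 10, total 15), scaled by TMM and tested by edgeR 4.0.16 quasi-likelihood (R 4.3.3) without covariates, with Benjamini-Hochberg adjustment over all genes at 0.05. SE was derived from the F statistic (size of the log2 fold change divided by the root of F), and 95% intervals use its t distribution. Profiles used log2 CPM with a prior count of 2. Alternatives were DESeq2 1.42.0, limma-voom (limma 3.58.1), other scalings and filters, a replicate block and each library left out. A floor of 3 counts equals 0.145 to 0.202 CPM, for counting error only. Replicate libraries differed by more than counting noise, so none was merged.

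The 9 genes and the 7 role lists were chosen with earlier results of these data known. Named were the 9 genes, 20 fixed genes, up to 3 genes per list and direction with the smallest p under 0.05, and the 10 genes of nearest profile; 1 gene of these lists is not reported here.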

Additional observations from a re-analysis of the deposited data

How the results depend on the processing

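All 9 genes kept a negative log2 fold change in each of the 15 alternative fits, and all 9 had non-overlapping groups under 2 other scalings; with fewer libraries non-overlap is fixed by that over all 6. The DESeq2 Wald test called 152 genes higher and 66 lower, where edgeR called 0 and 0 (1244 at an unadjusted p under 0.05), and 8 of the 124 related genes, where edgeR called 0. Without naive replicate 1 DESeq2 called 201 higher and 52 lower and 8 related genes, with GGT5 and SOD3 (higher) in place of GSR and GSTM3. The cause was not tested. With single libraries left out, the median log2 fold change of the 9 genes ran from -1.49 (without post-MI replicate 3) to -0.81 (without naive replicate 1). The replicate numbers are shared between the groups, but same-numbered libraries deviated together with correlations of 0.151, -0.109 and 0.0924, so the numbers were not taken to pair them. With a replicate block edgeR called 0 genes and the median was -1.20; with a replicate block and both first replicates left out, 4 libraries, it was -0.63 and edgeR called 0 genes. Signs turned for GPX1, which with single libraries left out lay between -0.29 (naive replicate 2 left out) and 0.049 (naive replicate 1 left out) (0.0003 without post-MI replicate 1) and gave 0.17 with the block on 4 libraries and 0.044 in DESeq2 without naive replicate 1. GPX4 ran from -0.12 (without post-MI replicate 2) to 0.055 (without post-MI replicate 1) and gave 0.041 with the block on 4 libraries. SOD2 ran from -2.08 (without post-MI replicate 3) to 0.74 (without naive replicate 1) and gave 0.64 with the block on 4 libraries and 0.74 in DESeq2 without naive replicate 1. With that block TKT gave 0.057 and CAT -0.024. The lowest of the counts of the 9 genes was 163, and depth limits 1 group: for SLC7A11 with post-MI plasma the spread between libraries (coefficient of variation 5.08%) was below the 6.8% that counting error alone gives.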

Other observations

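Antioxidant enzymes outside the thiol systems did not share one direction. Of 5 tested genes for superoxide dismutases, catalase and the copper chaperone CCS, 1 passed an unadjusted edgeR p of 0.05 with higher levels (CCS, at 22.4 to 33.8 CPM with naive and 34.9 to 43.9 CPM with post-MI plasma), 0 with lower levels and 0 after adjustment over all genes. In either direction 1244 of the 14326 genes tested passed unadjusted. CCS no longer passed without naive replicate 1 (log2 fold change 0.34 against 0.47) and SOD3 passed in its place with higher levels, while the median log2 fold change of the list was 0.34 against 0.22. SOD1, the cytosolic dismutase, was at 17.8 to 23.9 CPM with naive and 7.50 to 17.6 CPM with post-MI plasma, with groups barely apart (lowest naive over highest post-MI library 1.01), and it did not pass an unadjusted edgeR p of 0.05. Catalase (CAT) overlapped, at a log2 difference of 0.22 ± 0.23 (SE; adjusted p = 0.772 by edgeR), and 0.03 without naive replicate 1. Mitochondrial SOD2 was at 587 CPM in naive replicate 1 and 238 CPM in post-MI replicate 3, and at 49.0 to 75.1 CPM in the other 4 libraries.

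SLC7A11 is also a target of ATF4, the factor of the amino acid response. ATF4 mRNA overlapped between the groups, at 501 to 917 CPM with naive and 544 to 860 CPM with post-MI plasma (-0.20 ± 0.28 on the log2 scale, SE; edgeR adjusted p = 0.837). All 13 tested genes of a list of ATF4 and its other targets had a negative log2 fold change, beside 52.1% of all genes tested. Their median was -0.62, against -0.01 over all genes. Without naive replicate 1 the sign was negative for 12 of 13, with medians of -0.26 and 0.00. The share of all genes with a negative sign was not counted in that fit. CHAC1, SESN2 and SLC3A2 of this list were also counted in the glutathione or thioredoxin lists. At an unadjusted edgeR p under 0.05 only VLDLR passed, with 163 CPM in the first naive library and between 9.63 and 39.2 CPM in the rest, and it did not pass without naive replicate 1. Of the 13 genes 0 had groups that did not overlap, where 7.82% of all tested genes did with lower levels.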
